A study of Mus musculus with 6 samples.

Results

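The late-numbered miRNAs described here were the mature mouse miRNAs whose name carries a number of 1000 or above and whose counts over 6 small RNA libraries of mouse pancreas summed to at least 60. The rule was met by 50 of the 1077 miRNAs in the deposited table. Members were chosen by the number in the name and the total count, and the group labels did not enter the rule, which left out miR-1193. The choice was made with earlier results of these data known, so it was not blind to them. Another 371 late-numbered rows had fewer than 60 counts, 259 of them fewer than 10, and 654 rows belonged to earlier miRNAs. All 6 libraries came from pancreas with pancreatitis, 3 of them from control mice and 3 from mice whose blood held too much triglyceride, a condition the library titles abbreviate as HTG, so the controls carried pancreatitis too. The labels give no strain, sex, age or genotype, and do not say how pancreatitis or HTG was brought about. They leave unsaid whether each library is a different animal, and p-values therefore rest on library-to-library spread that may in part be technical.

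A miRNA is cut from a hairpin precursor, and 1 or both arms of the hairpin can leave a mature strand, named -5p or -3p. The seed, bases 2 to 8, does most of the pairing with target mRNAs. Numbers were given to miRNAs in the order of their discovery, so late numbers mostly mark miRNAs that were found by deep sequencing, and some such entries were later questioned because they overlap fragments of tRNAs or small nucleolar RNAs (snoRNAs). Mirtrons are hairpins that fill a whole short intron, whose ends are made by splicing rather than by the nuclease Drosha.

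Of the 50 late-numbered miRNAs, 46 had a mature sequence in the RefSeq tables for GRCm38.p6, the build named in the submitters' processing notes, and miR-5099, miR-3970, miR-3065-3p and miR-3074-1-3p did not. The 50 miRNAs came from 45 hairpin loci. Sequences had 19 to 26 bases with a median GC content of 53.5%, against 50% in 855 other miRNAs of the table, and the median length was 22 bases in both. The seed was shared with no other miRNA of the table in 41 of the 46. The first set shows those of the 8 most abundant members that have a sequence, and the other arm of miR-1981, with the seed in capitals.
miR-3968: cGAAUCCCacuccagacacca
miR-6969-3p: uGUUGUUCccaucucugcag
miR-6969-5p: cAGCAGAGuagggagcaaaaga
miR-1198-5p: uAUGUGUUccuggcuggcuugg
miR-1983: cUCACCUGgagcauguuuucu
miR-1191a: cAGUCUUAcuauguagcccua
miR-1981-5p: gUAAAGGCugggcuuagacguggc
miR-1981-3p: cAUCUAACccuggccuuugac

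Several late-numbered miRNAs had a near copy among other miRNAs of the table, and these are shown because reads of one could be counted for the other. miR-3964 aligned with miR-142a-5p, a miRNA of blood-forming cells, from position 2 of that miRNA, with 17 of 20 aligned bases identical. The substitutions, counted from the 5′ end of miR-142a-5p with its base first, were A6G, C20A and U21A. miR-3962 aligned with let-7g-5p, a member of the widely expressed let-7 family, from position 3, with 19 of 20 identical and the substitution G20U. miR-3473e aligned with miR-3473b from its first base with 18 of 20 identical and the substitutions A19G and G20U, and both had the same seed. Capitals mark the bases that differ.
miR-142a-5p: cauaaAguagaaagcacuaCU
miR-3964: auaaGguagaaagcacuaAA
let-7g-5p: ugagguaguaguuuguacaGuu
miR-3962: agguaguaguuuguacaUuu
miR-3473b: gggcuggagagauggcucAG
miR-3473e: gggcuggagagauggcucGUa

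The libraries held 6514498 to 19773579 counts each. Levels below are CPM values (counts scaled to the library's total over the tested miRNAs), corrected by the trimmed mean of M-values (TMM) factor of the library. With 0 counts in 1 library, levels under 0.137 to 0.387 CPM (3 counts) could not be detected; this limit and the intervals on shares cover counting error only, since PCR copies without molecular identifiers are not independent molecules. Both libraries numbered 1 stood apart from the others of their group in several miRNAs of blood-forming cells and in miR-143-3p of smooth muscle and stellate cells. miR-150-5p, a lymphocyte miRNA, was at 798, 66.2 and 103 CPM in control libraries 1, 2 and 3 and at 1726, 46.7 and 46.2 CPM in the HTG libraries. miR-143-3p was at 56170, 22370 and 12980 CPM in the controls and at 32180, 16160 and 18510 CPM in the HTG libraries. Another marker of these cells, miR-145a-5p, was also highest in both libraries numbered 1, at 1595 and 880 CPM. In the controls miR-199a-3p and miR-214-3p of the same list had another order, at 1930, 2187 and 2302 CPM and at 52.2, 48.4 and 58.2 CPM. With HTG both were highest in library 1, at 2138 and 62.6 CPM. The leukocyte markers did not share 1 order: in control library 1, miR-223-3p and miR-146a-5p were the lowest of the controls, at 663 and 181 CPM. All 8 leukocyte markers had counts, with a summed level of 2634 to 4777 CPM in control and 1287 to 6595 CPM in HTG libraries. The 4 acinar markers, led by miR-148a-3p, summed to 319000 to 437400 and 318000 to 527800 CPM. In control library 3, miR-148a-3p was the lowest of the controls, at 281700 CPM. There miR-216a-5p, miR-216b-5p and miR-217-5p were the highest of the controls, at 4545, 11400 and 21410 CPM. In HTG library 1 all 4 were the lowest of their group. The liver miRNA miR-122-5p lay between 1.11 and 7.501 CPM. In whole tissue, fewer cells of a type and less RNA per cell cannot be told apart.

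The late-numbered miRNAs were a small part of the pancreatic small RNA, and a few of them held most of it. Together they had 55469 counts, 0.0761% of all counts. Their share was 0.0796% ± 0.00748 (SD, n = 3) in control and 0.0750% ± 0.0192 (SD, n = 3) in HTG libraries. On the CPM scale they summed to 841, 732 and 772 in the controls and 816, 751 and 682 with HTG, ranges that overlapped. The 3 members with the most counts, miR-3968, miR-5099 and miR-6969-3p, held 63.0% of the members' counts and the top 8 held 84.2%. Only 8 members had a total of 1000 or more, 33 had less than 200, and the median total was 124.5. All but miR-1306-5p, which had 0 counts in HTG library 3, had counts in each of the 6 libraries.

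**Figure D1:**
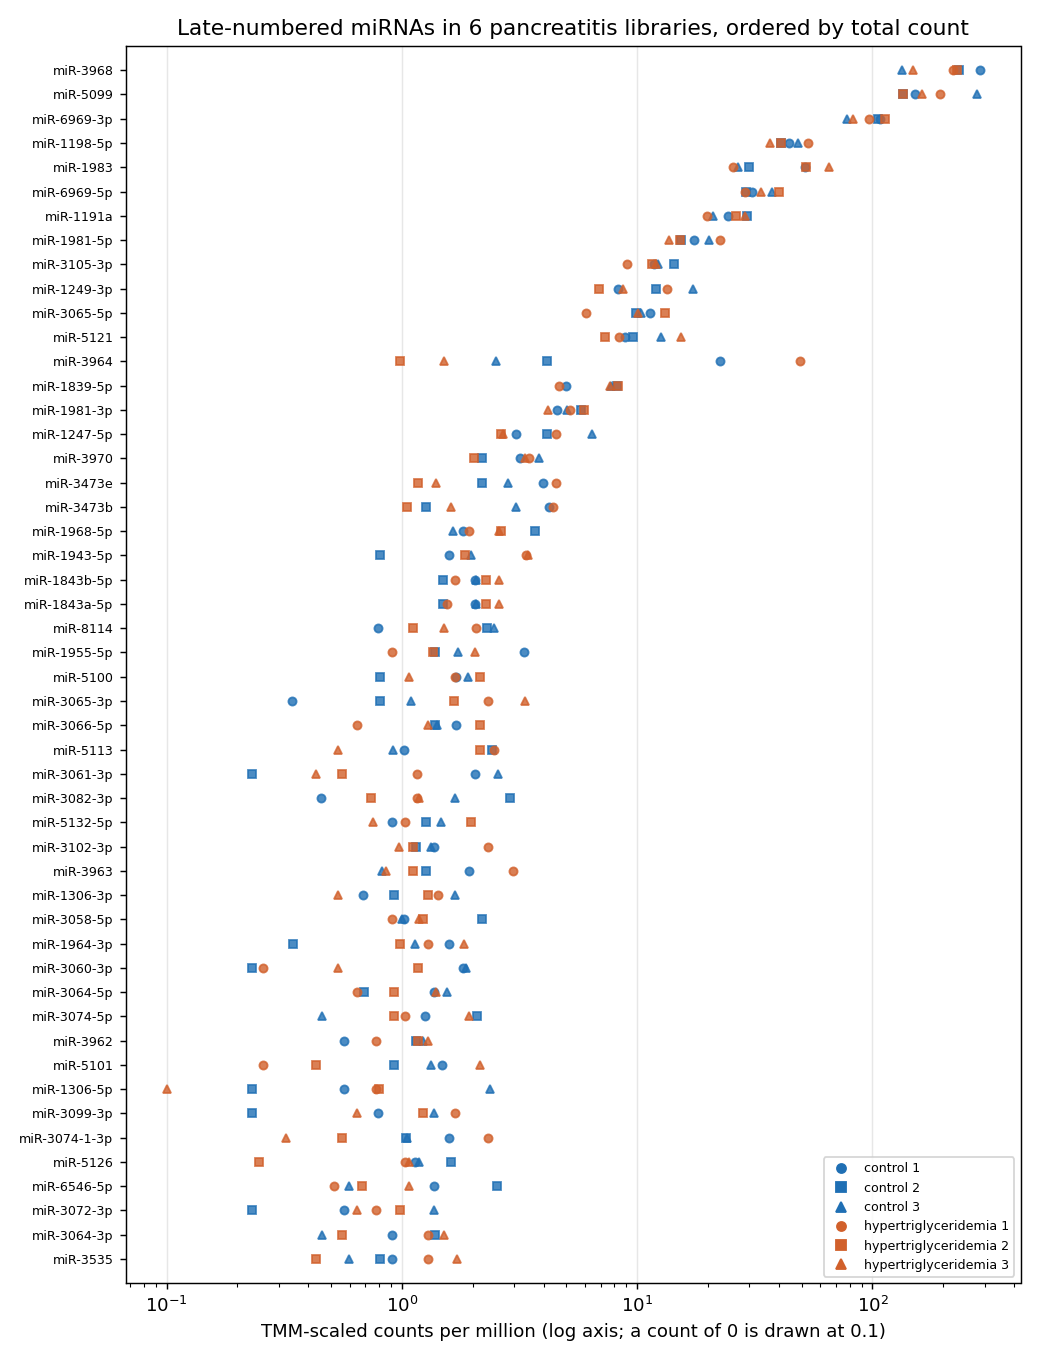
Level of each of the 50 late-numbered miRNAs in each of the 6 libraries, in TMM-scaled CPM on a log axis; blue marks control and orange HTG, the shape gives the library number, and a count of 0 is drawn at 0.1. Colours are mixed in nearly every line, and miR-3964 spreads most, from 0.986 to 49.3 CPM.

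No late-numbered miRNA differed between the groups at the threshold. Of the 50, 45 passed the filter on low counts and were tested among 488 miRNAs; miR-3060-3p, miR-1306-5p, miR-6546-5p, miR-3072-3p and miR-3535 did not pass. With edgeR's quasi-likelihood test, 0 of the 45 had an adjusted p under 0.05, as did 0 of all 488, a background of 0%. Every tested member had an adjusted p of 0.996. At an unadjusted p under 0.05, edgeR listed 1 member, 2.22% of those tested, against 12 or 2.46% of the 488. With the replicate number as a block, edgeR listed 2 members and 27 of the 488 at that level, and 0 at an adjusted p. DESeq2 gave 0 adjusted calls and 19 unadjusted ones among the 488, of which 1 was a member, and limma-voom gave 0 and 17.

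The fold changes lay evenly about 0. On the log2 scale of HTG over control, 20 tested members lay above and 25 below 0, with a median of -0.02 against -0.01 over the 488. The groups did not overlap in 2 members, 4.44% of those tested, against 39 or 7.99% of the 488; these were miR-3065-3p, higher with HTG, and miR-5126, lower. The standard error (SE) of the log2 fold change had a median of 0.46 in the members and 0.29 over all tested, and the median level was 2.002 against 19.6 CPM.

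**Figure D2:**
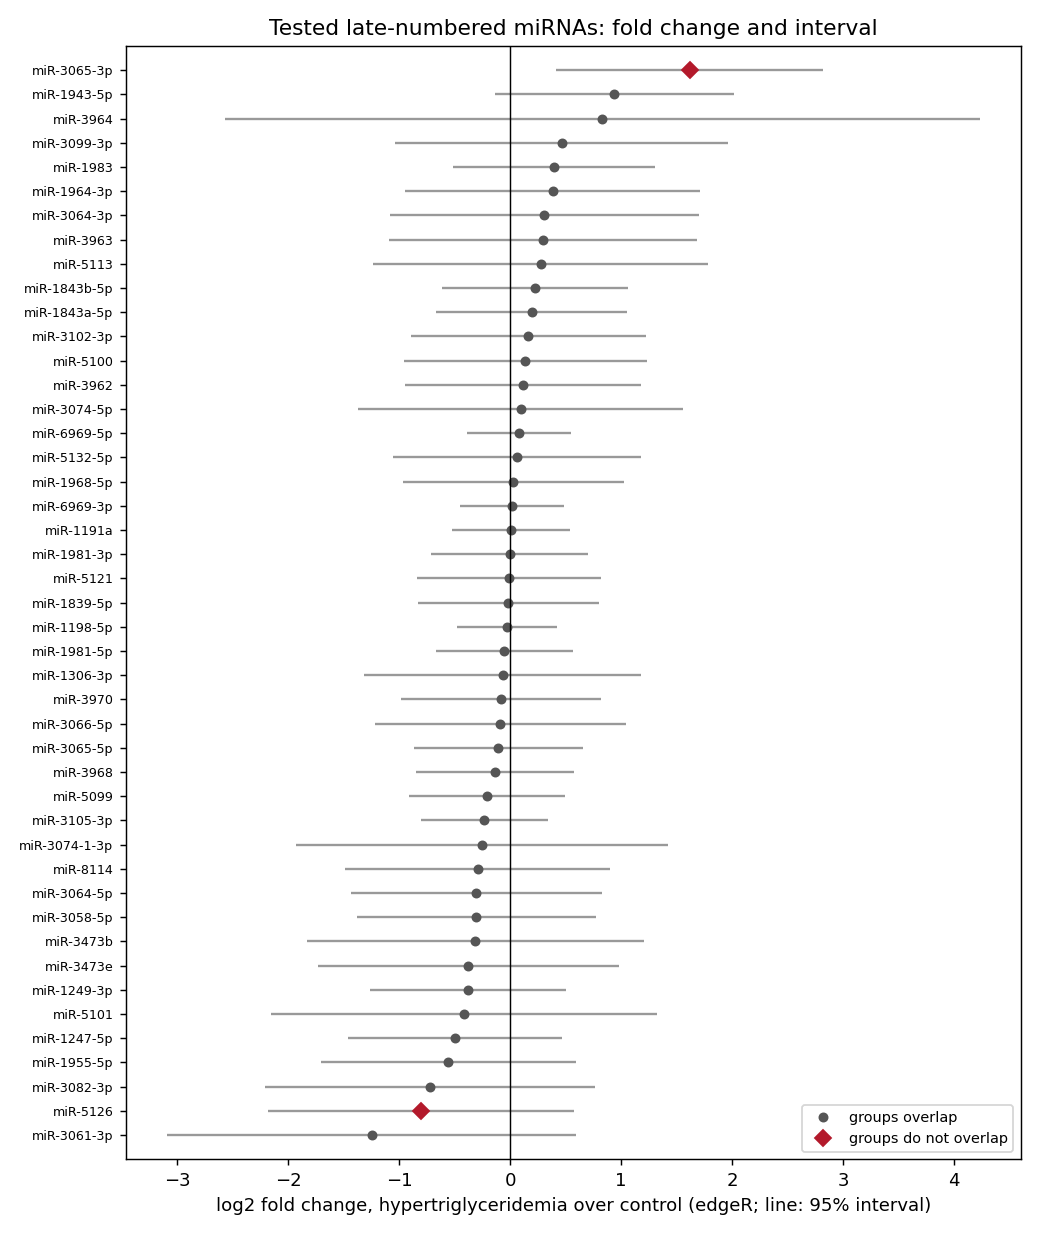
Log2 fold change of HTG over control from edgeR for the 45 tested late-numbered miRNAs, with lines for 95% confidence intervals; diamonds mark the 2 members whose groups do not overlap. The interval leaves out 0 for miR-3065-3p, from 0.42 to 2.82, before adjustment.

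The most abundant group had letters of tRNAs or lay on a tRNA gene. The letters CGAAUCCCA, of a kind common in the T arm of tRNAs, were searched on the miRNA strand and occurred in miR-3968 and miR-5100 and in 0 of the 855 other miRNAs. The shorter AUCCCA, part of the same run, occurred also in miR-3963 and, outside the members, in miR-191-5p alone. miR-3968 further ends in CCA, the letters at the 3′ end of every mature tRNA, as did miR-3060-3p and 8 of the 855 others. miR-1983 (hairpin at chr13:21896918-21897049, minus strand) overlapped the tRNA gene n-TItat14 in the RefSeq annotation. These 4 miRNAs held 31.4% of the members' counts, and 3 lay above and 1 below 0, none past the threshold. The 1 below 0 was miR-3968, which alone had 14244 of their 17417 counts, while miR-5100 and miR-3963 had 122 and 95.

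miR-3968 had the highest level of all late-numbered miRNAs and ranked 120 by mean level in the table. Its hairpin lies at chr11:115447961-115448060, minus strand, opposite to the coding gene Trim80. It was at 286, 233 and 134 CPM in control libraries 1, 2 and 3 and at 219, 228 and 148 CPM in the HTG libraries. The lowest level in either group was that of library 3, and the groups overlapped, with a log2 fold change of -0.13 ± 0.30 (SE).

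miR-1983 was at 51.8, 29.98 and 26.9 CPM in the control libraries and at 25.4, 52.3 and 65.2 CPM with HTG. Control library 1 and HTG libraries 2 and 3 were high and the rest low, so the groups overlapped, and the log2 fold change was 0.40 ± 0.39 (SE). Without both libraries numbered 1 it was 1.14, with an adjusted p of 0.0728 by edgeR, the lowest of any named member under any setting tried. miR-5100 and miR-3963 averaged 1.56 and 1.49 CPM over the 6 libraries, with log2 fold changes of 0.14 ± 0.47 and 0.30 ± 0.60 (SE).

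miR-5099 ranked second among the members. Its hairpin (chr12:36816205-36816278, plus strand) lies in no longer gene of its strand. It was at 152, 135 and 278 CPM in the controls and 194, 135 and 162 CPM in the HTG libraries. Control library 3 stood above the other 5, where miR-5099 took 36.1% of the members' counts against 18.0% to 23.7% elsewhere. The log2 fold change was -0.21 ± 0.30 (SE), and 0.18 without control library 3.

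The hairpin of miR-6969 lies in the pancreas gene Clps, which encodes colipase, the cofactor that lets pancreatic lipase act on dietary fat. It spans chr17:28558441-28558501, minus strand, in an intron, and its 3′ end lies within 5 bases of the splice acceptor; the 3p strand ends in CAG, the usual letters at the end of an intron. CAG ended 4 of the 46 member sequences and 56 of the 855 others. Both arms were among the members.

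miR-6969-3p was at 107, 105 and 77.6 CPM in the controls and 96.7, 114 and 82.4 CPM in the HTG libraries. The groups overlapped, with means of 96.8 ± 16.6 and 97.5 ± 15.6 CPM (SD, n = 3) and a log2 fold change of 0.01 ± 0.20 (SE). miR-6969-5p was lower, at 30.8, 29.0 and 37.2 CPM in control and 28.8, 39.9 and 33.8 CPM with HTG. Its groups overlapped too, and the log2 fold change was 0.08 ± 0.20 (SE).

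The acinar marker miR-148a-3p was far above the Clps intronic miRNA. The counts of miR-6969-3p were 0.0173% to 0.0324% of the pair's counts, and this share was highest in HTG library 1. That library had less miR-148a-3p than the other 2 of its group, at 298100 CPM. Control library 3 had still less, at 281700 CPM, with a share of 0.0275% against 0.0259% and 0.0269% in control libraries 1 and 2. A further 3 members with 1 hairpin end at a splice acceptor, miR-3082-3p in Stub1 and both arms of miR-3064 in Ddx5, had mean levels of 1.02 to 1.35 CPM. Of the 5 members of this kind, 3 lay above and 2 below 0.

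Mirtrons were represented by 3 members of 2 hairpins. miR-1981 (chr1:184822407-184822488, minus strand) fills an intron of Marc2, the gene of a mitochondrial molybdenum enzyme, and miR-3102-3p fills one of Arhgef17. miR-1981-5p, whose first bases GUAA are those of a splice donor, was at 17.5, 15.3 and 20.2 CPM in control and 22.5, 15.2 and 13.7 CPM with HTG. Those values overlapped, with a log2 fold change of -0.05 ± 0.26 (SE). miR-1981-3p ranged from 4.19 to 5.92 CPM over the 6 libraries, with a log2 fold change of -0.00 ± 0.30 (SE). miR-3102-3p averaged 1.37 CPM.

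Members in ordinary introns and exons included 2 of the 8 most abundant. miR-1198-5p, in an intron of Gripap1 on chromosome X, was at 44.1, 40.8 and 48.2 CPM in control and 53.3, 40.9 and 36.7 CPM with HTG. Its log2 fold change was -0.03 ± 0.19 (SE), the smallest error of any member. miR-1191a, in an exon of BC024978, ranged from 20.97 to 29.4 CPM in control and from 19.9 to 28.6 CPM with HTG, with a log2 fold change of 0.01 ± 0.23 (SE). Intron-borne members with none of the other features numbered 13; of the 11 tested, 4 lay above and 7 below 0, none past the threshold.

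The members included 5 related to snoRNAs or small Cajal body RNAs, the guides that direct chemical marks on other RNAs. miR-5121 overlaps Snord33 within Rpl13a, the gene of a ribosomal protein. It was at 8.86, 9.57 and 12.6 CPM in the controls and 8.39, 7.27 and 15.4 CPM in the HTG libraries, highest in library 3 of each group. The log2 fold change was -0.01 ± 0.35 (SE). miR-1839-5p, in the long noncoding RNA 2900076A07Rik, ranged from 4.65 to 8.32 CPM with a log2 fold change of -0.02 ± 0.35 (SE). miR-1843a-5p and miR-1843b-5p, in Scarna3b and Scarna3a, share 20 bases and had 149 and 150 counts, a difference in HTG library 1 alone. Their reads cannot be assigned to 1 of them, and at 1.499 to 2.58 CPM their groups overlapped. Over the 4 tested, 2 lay above and 2 below 0. miR-3535, in Ncl, was not tested.

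The hairpin of miR-3065 gave the largest log2 fold change of any tested member. It lies at chr11:120014767-120014853 on the plus strand, opposite to the hairpin of miR-338, a miRNA best known from neurons and glia. The mature miR-3065-5p and miR-338-3p overlap by 21 bases on opposite strands. Whether the counting used strand is not stated. The counts of the 2 were unlike, 100 against 393 in control library 1 and 213 against 165 in HTG library 2. How far reads of one were counted for the other was not tested. Both sequences are shown because the letters read 1 locus in both directions, with the overlap in capitals.
miR-3065-5p: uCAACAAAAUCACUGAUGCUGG
miR-338-3p: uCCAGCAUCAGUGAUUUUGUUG

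miR-3065-3p was at 0.341, 0.807 and 1.097 CPM in control libraries 1, 2 and 3 and at 2.32, 1.66 and 3.33 CPM in the HTG libraries, from 3, 7, 24, 18, 27 and 31 counts. Every HTG library was above every control, with means of 2.44 ± 0.841 and 0.748 ± 0.381 CPM (SD, n = 3). The log2 fold change was 1.62 ± 0.51 (SE), with an unadjusted p of 0.015 by edgeR, which did not pass after adjustment (0.996). For the 5p arm of the same hairpin the groups overlapped. miR-3065-5p was at 11.4, 9.92 and 10.4 CPM in control and 6.07, 13.1 and 10.1 CPM with HTG, with the lowest and the highest of all 6 libraries in the HTG group. Its log2 fold change was -0.11 ± 0.33 (SE), and 0.29 without both libraries numbered 1. miR-338-3p, from the other strand, had 393, 119 and 204 counts in control and 278, 165 and 97 counts in HTG libraries, so that both libraries numbered 1 were the highest of their group.

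The share of the 5p arm among the counts of both arms of miR-3065 was lower in each library with HTG. It was 97.1%, 92.5% and 90.5% in control and 72.3%, 88.8% and 75.2% in HTG libraries. The groups did not overlap, with means of 93.4% ± 3.39 and 78.8% ± 8.78 (SD, n = 3), yet the 95% Wilson intervals of the nearest pair did, 86.2% to 93.5% in control library 3 and 84.1% to 92.2% in HTG library 2. A two-sided exact permutation test gave p = 0.1, the smallest that 3 libraries against 3 allow, and 0.6 after Benjamini-Hochberg adjustment over 6 hairpins.

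In the 5 other hairpins with both arms among the members, the mean arm shares of the groups differed by less than the larger SD of the pair. miR-6969-3p made up 74.6% ± 6.08 of its pair in control and 74.0% ± 3.07 in HTG libraries (SD, n = 3), and miR-1981-5p 77.4% ± 4.08 and 76.6% ± 4.65. In both hairpins the same arm led in all 6 libraries. The pairs of miR-1306, miR-3064 and miR-3074 had 63 to 88 counts per arm over the 6 libraries, and the shares of their larger arm ranged from 30.3% to 100%. The exact permutation p of these 5 was 0.4 to 0.9, and 0.9 adjusted over the 6 hairpins. For miR-3074 the share and its p do not describe 1 hairpin. The sequence of miR-3074-5p is the same in both copies of the hairpin, while miR-3074-1-3p is assigned to 1 copy.

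**Figure D3:**
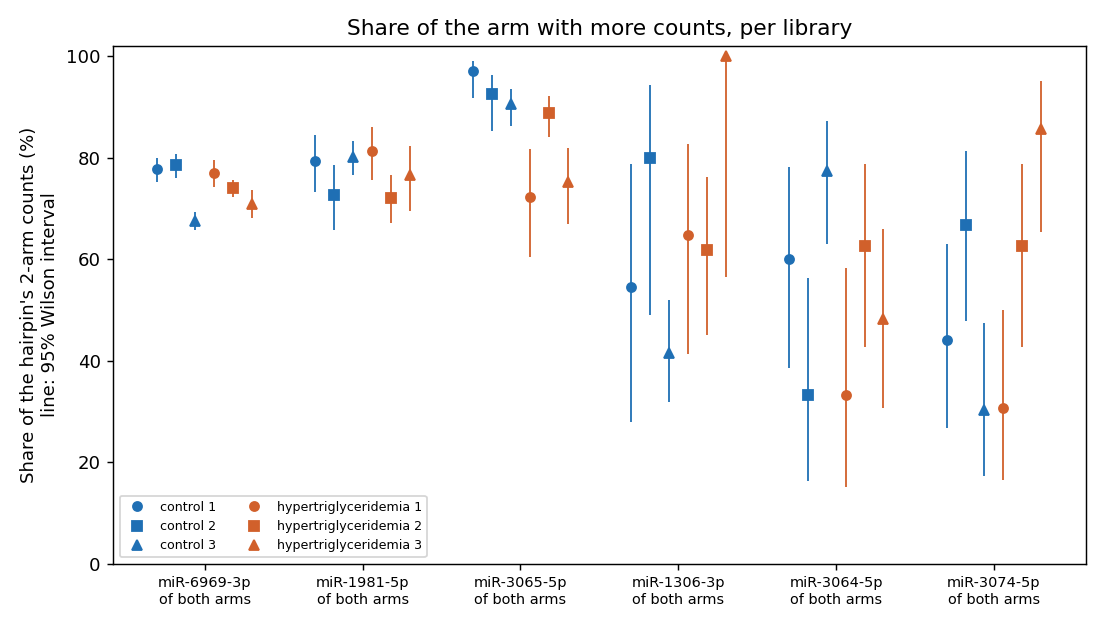
Share of the arm with more counts among the counts of both arms, in percent, for the 6 hairpins with both arms among the members; each point is 1 library, blue for control and orange for HTG, and lines are 95% Wilson intervals. In miR-3065 the control points lie at 90.5% to 97.1% and the HTG points at 72.3% to 88.8%, while the points of miR-6969 and miR-1981 are mixed. The 5p counts of miR-3074 can come from both copies of its hairpin.

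miR-3074 was the other hairpin on the strand opposite to an older one. It has a copy opposite to each of the hairpins of miR-24, on chromosomes 8 and 13, and miR-3074-5p overlaps miR-24-3p by 20 bases. miR-3074-5p had 80 counts against 292453 of miR-24-3p. miR-3074-5p and miR-3074-1-3p had log2 fold changes of 0.09 ± 0.63 and -0.26 ± 0.72 (SE). Without HTG library 1 the value of miR-3074-1-3p was -1.37, with an unadjusted p of 0.0442 and an adjusted p of 0.514 by edgeR. Over the 4 members on opposite strands, 2 lay above and 2 below 0.

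miR-3964 varied more among libraries than any other member named for its range. Its hairpin (chr15:29713331-29713404, minus strand) lies in no longer gene. It was at 22.5, 4.15 and 2.51 CPM in the controls and 49.3, 0.986 and 1.51 CPM in the HTG libraries. Both libraries numbered 1 were high and the other 4 low, with the highest 50 times the lowest. The log2 fold change of 0.83 ± 1.46 (SE) rested on HTG library 1: without it the value was -2.95, with an unadjusted p of 0.0377 and an adjusted p of 0.514 by edgeR, and without both libraries numbered 1 it was -1.33. With the replicate number as a block it was -0.33 with an adjusted p of 0.989 by edgeR, and limma gave -0.64 with voom, -0.25 on log2(TPM + 1) and -0.38 on log2(TPM + 0.5), so its direction was not settled.

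Its near copy miR-142a-5p moved in the same libraries. miR-142a-5p was at 1236, 473 and 221 CPM in control and at 2204, 170 and 169.5 CPM with HTG. Among the counts of both, miR-3964 took 1.79%, 0.870% and 1.12% in control and 2.19%, 0.577% and 0.881% in HTG libraries. The share was highest in the libraries numbered 1, where the 95% Wilson intervals of 1.56% to 2.05% and 1.98% to 2.42% lay above those of the other 4. miR-223-3p, a marker of neutrophils and other myeloid cells, had another order, at 663, 3510 and 1695 CPM in control and 993, 769 and 948 CPM with HTG. The part of leukocyte content, or of reads of miR-142a-5p, in the level of miR-3964 was not tested.

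**Figure D4:**
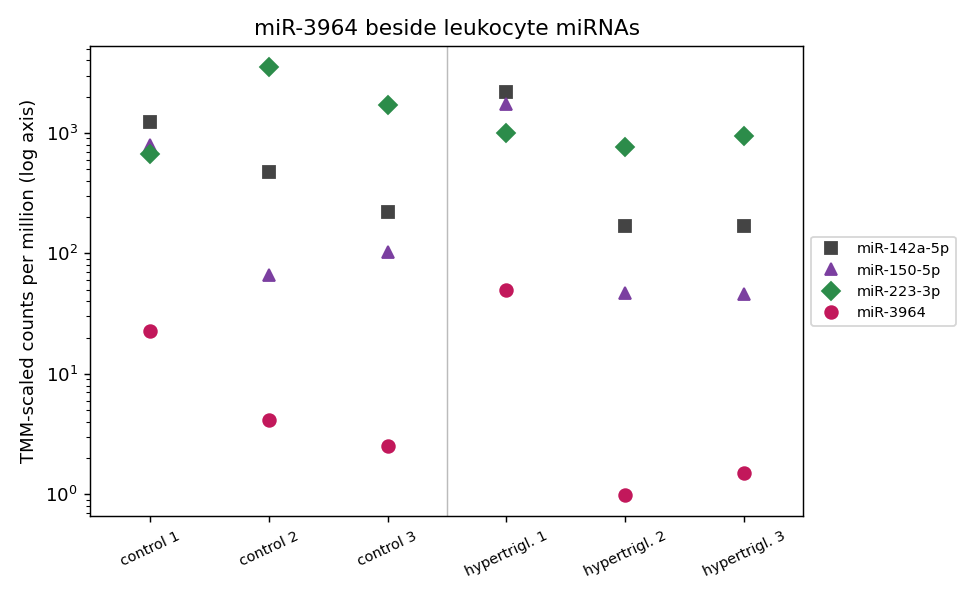
Level of miR-3964 in each library, in TMM-scaled CPM on a log axis, beside the leukocyte miRNAs miR-142a-5p, miR-150-5p and miR-223-3p. miR-3964, miR-142a-5p and miR-150-5p are highest in both libraries numbered 1, and miR-223-3p is highest in control library 2.

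The other near copies were less variable. miR-3962 had 79 counts against 1332893 of let-7g-5p, or 0.00593% of the pair, with 0.00328% to 0.00671% in single libraries and a log2 fold change of 0.12 ± 0.46 (SE). miR-3473b was at 4.21, 1.27 and 3.06 CPM in control and at 4.39, 1.05 and 1.61 CPM with HTG. miR-3473e was at 3.98, 2.19 and 2.83 CPM in control and 4.52, 1.17 and 1.40 CPM with HTG, again highest in both libraries numbered 1. The exact letters of miR-3473b stood in transcripts of 359 genes on the same strand, so its reads need not come from 1 locus. The log2 fold changes of miR-3473b and miR-3473e were -0.31 ± 0.65 and -0.38 ± 0.58 (SE), and -0.67 and -0.89 without both libraries numbered 1. Without HTG library 1 alone they were -1.09 and -1.19, the latter with an unadjusted p of 0.0374 and an adjusted p of 0.514 by edgeR.

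Among tested members above 0, those with the smallest p after miR-3065-3p were miR-1943-5p, miR-1983, miR-3099-3p and miR-1964-3p. miR-1943-5p, in an intron of Tmem184b, was at 1.59, 0.807 and 1.97 CPM in control and at 3.36, 1.85 and 3.44 CPM with HTG. HTG library 2 lay below control library 3, so the groups overlapped, and the log2 fold change was 0.94 ± 0.46 (SE). With the replicate number as a block it was 1.0012 with an unadjusted p of 0.0474 and an adjusted p of 0.847 by edgeR. miR-3099-3p, in an intron of the imprinted gene Usp29, and miR-1964-3p, in an intron of Zfp84, had log2 fold changes of 0.47 ± 0.64 and 0.38 ± 0.57 (SE).

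On the other side of 0, the 5 with the smallest p were miR-3061-3p, miR-5126, miR-1247-5p, miR-3082-3p and miR-1955-5p. miR-3061-3p, in an untranslated part of Ppp2ca, the gene of a phosphatase subunit, was at 2.05, 0.231 and 2.56 CPM in control and 1.16, 0.555 and 0.430 CPM with HTG. Control library 2, with 2 counts, was the lowest of all, and the log2 fold change was -1.25 ± 0.79 (SE). miR-5126 was at 1.14, 1.61 and 1.19 CPM in control and 1.03, 0.247 and 1.08 CPM with HTG. Its groups did not overlap, but the nearest libraries differed by less than 0.1 CPM, and the log2 fold change was -0.80 ± 0.59 (SE). Its 22 bases are all G or C.

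miR-1247-5p lies in Dio3os, the noncoding neighbour of the deiodinase gene Dio3. It was at 3.07, 4.15 and 6.44 CPM in control and 4.52, 2.65 and 2.69 CPM with HTG, which overlapped, with a log2 fold change of -0.49 ± 0.41 (SE). miR-3082-3p and miR-1955-5p, the latter in an intron of Phf21a, had values of -0.72 ± 0.64 and -0.56 ± 0.49 (SE). The value of miR-1955-5p was 0.18 without both libraries numbered 1. Each of these had an adjusted p of 0.996 by edgeR.

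Members close to the total of 60 counts differed little in level from rows close below it. Just inside were miR-3535, miR-3064-3p and miR-3072-3p with 61, 63 and 65 counts, and just outside miR-3068-3p, miR-3081-3p and miR-8112 with 57, 54 and 52. Their mean levels were 0.763 to 1.02 CPM inside and 0.751 to 0.797 CPM outside. miR-3072-3p, in the noncoding gene Mirg, comes from the miRNA cluster of the imprinted Dlk1-Dio3 domain, and miR-1247-5p lies near its Dio3 end. The 371 late-numbered rows under 60 counts held 0.00363% to 0.00717% of a library's counts, and none of them passed the filter on low counts.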

How the data were processed

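RNA of mouse pancreas was extracted with Trizol and made into libraries (NEXTflex Small RNA-Seq Kit v3), per the labels' protocols. Per the submitters' processing notes, Bowtie 1.1.1 and GRCm38 were used; trimming, mismatches, strand and multiple matches: not given in the sources used here. Deposited values are whole-number read counts per miRNA and the authors' TPM per library, per the file headers; TPM summed to 1017264 to 1019868 per library and served in alternatives alone. Counts were tested with edgeR 4.0.16 (R 4.3.3): filterByExpr (minimum count 10, minimum total 15), TMM scaling and a quasi-likelihood test (two-sided), adjusted by Benjamini-Hochberg over 488 miRNAs at 0.05, checked on simulated counts. Alternatives were DESeq2 1.42.0, limma 3.58.1 (voom, and log2(TPM + 1) or log2(TPM + 0.5)), other scalings, no filter, a replicate block, and libraries left out. Deviations of same-numbered libraries from their group correlated at 0.466, 0.187 and 0.253 over miRNAs. Library 2 of 1 group correlated with library 3 of the other at 0.226 and 0.215, so only the libraries numbered 1 stood clear as a pair. The labels give no shared source. The reported fit used no block, and the replicate block served as an alternative alone.

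Genome positions came from GENCODE and RefSeq annotation of GRCm38, and sequences from RefSeq GRCm38.p6. A hairpin end within 5 bases of an intron end counted as lying there. Members, lists and tests were chosen with earlier results of these data known. Named members were the 8 most abundant, the 5 with the smallest p in each direction, the 5 with the widest range at 2 CPM or more, hairpins with both arms, the 3 on either side of 60 counts, and the locus lists; others are named where a locus or sequence group is described.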

Additional observations from a re-analysis of the deposited data

How the results depend on the processing

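The number of late-numbered miRNAs with an adjusted p under 0.05 was 0 in every alternative. Over all tested miRNAs that number was 0 as reported, 1 without the filter on low counts (the non-member miR-135b-5p), 4 without both libraries numbered 1, and 0 to 2 when 1 library was left out. Members at an unadjusted p under 0.05 were 1 of 45 as reported, beside 12 of all 488 tested. With the replicate block they were 2 of 45, beside 27 of 488. Without both libraries numbered 1 they were 4 of 49, beside 70 of 509. When 1 library was left out they were 1 to 4, beside 9 to 45 of all tested. The 4 were of 47 without HTG library 1, beside 45 of 500. With a membership minimum of 120 counts they were 0 of 26, and the members with groups that do not overlap were also 0. miR-3065-3p, whose 110 counts lie under that minimum, was listed at an unadjusted p in each of the other fits except without HTG library 3, where miR-5101 took its place. Of the counts outside miR-148a-3p, the members held 0.126% in control and 0.125% in HTG libraries.

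Of 510 log2 fold changes of 32 named members under the alternatives, 442 kept the sign of the reported value and 68 turned it. Of the turned values, 6 moved by more than the reported SE, and 12 members turned in no alternative. No value passed the threshold, though DESeq2 gave no p for miR-3964. The cause of the turned signs was not tested. With RLE factors the log2 fold change was 0.0199 for miR-5121, 0.0144 for miR-1839-5p and 0.0148 for miR-1981-3p. With library size alone the log2 fold change was -0.0180 for miR-6969-3p and -0.053 for miR-1191a. Without the filter on low counts the log2 fold change was 0.0042 for miR-5121, 0.0015 for miR-1839-5p and 0.0105 for miR-1981-3p. With DESeq2 the log2 fold change was 0.0167 for miR-5121, 0.0162 for miR-1839-5p and 0.022 for miR-1981-3p. With limma-voom the log2 fold change was -0.64 for miR-3964 and 0.0190 for miR-1981-3p. With limma on log2(TPM + 1) the log2 fold change was -0.034 for miR-6969-3p, -0.047 for miR-1191a and -0.25 for miR-3964. With limma on log2(TPM + 0.5) the log2 fold change was -0.035 for miR-6969-3p, -0.047 for miR-1191a and -0.38 for miR-3964. With the replicate block the log2 fold change was -0.33 for miR-3964. Without both libraries numbered 1 the log2 fold change was 0.12 for miR-3968, 0.29 for miR-3065-5p, 0.10 for miR-5121, -1.33 for miR-3964, 0.10 for miR-1839-5p, 0.0123 for miR-1981-3p, 0.18 for miR-1955-5p, -0.16 for miR-3102-3p and 0.055 for miR-3064-5p. With identical counts kept once the log2 fold change was 0.0046 for miR-1981-3p. When 1 library was left out, the log2 fold change ran from -0.40 to 0.17 for miR-3968, from -0.16 to 0.077 for miR-1198-5p, from -0.39 to 0.17 for miR-3065-5p, from -1.09 to 0.11 for miR-3473b, from -1.37 to 0.17 for miR-3074-1-3p, from -0.19 to 0.23 for miR-1839-5p, from -0.16 to 0.11 for miR-1981-3p, from -0.40 to 0.18 for miR-5099 and from -0.14 to 0.15 for miR-6969-3p. It ran likewise from -0.11 to 0.18 for miR-1191a, from -0.26 to 0.080 for miR-1981-5p, from -0.41 to 0.20 for miR-5121, from -0.28 to 0.42 for miR-1306-3p, from -0.37 to 0.66 for miR-3074-5p, from -0.076 to 0.73 for miR-3064-3p, from -2.95 to 2.39 for miR-3964, from -0.26 to 0.38 for miR-3102-3p and from -0.065 to 0.22 for miR-6969-5p. The replicate block turned no other named member. Over the 6 libraries 33 of the 50 members had fewer than 200 counts.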
